A study of Homo sapiens with 78 samples.

Results

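Small nucleolar RNAs (snoRNAs) and small Cajal body RNAs (scaRNAs) were counted in single A375 and Jurkat cells sequenced as total RNA. The members described here are the genes of GENCODE biotype snoRNA or scaRNA that reached at least 1 estimated count, transcripts of a gene summed, in at least 10 of 78 wells. This rule, which used the counts themselves, found 223 of 990 annotated genes, while 394 had a count in any well. They are 99 C/D box snoRNAs of 385 annotated, 101 H/ACA box snoRNAs of 213, 20 scaRNAs of 24 and 3 genes whose names give no class, of 368. SCARNA10, SCARNA12 and SCARNA18, annotated as snoRNAs, were placed with the scaRNAs by name. Just inside the limit, SNORA32, SNORA22B and SNORA15 were counted in 10 wells, at mean levels over all wells of 1.28, 0.801 and 0.412 CPM (estimated counts scaled to 1000000 per well). Just outside it, SNORD101, SNORD72 and SNORD35A were counted in 9 wells, at 0.701, 0.65 and 0.397 CPM.

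The cells came from A375, a melanoma line, and Jurkat, a leukaemia line of T cells. Live cells were sorted 1 per tube by flow cytometry, A375 with an antibody to CD47 into PBS and Jurkat with an antibody to CD81 into lysis solution. Libraries were made with either of 2 random-primed, strand-specific total RNA kits, SMARTer Pico Input v2 (#634413) or SMART-Seq Stranded (#634444), which gave 21 A375 and 18 Jurkat wells for each kit. The wells of a line are cells of 1 line culture, so the p-values measure the spread between wells, and the line and the sort buffer cannot be told apart.

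C/D box snoRNAs guide the 2′-O-methylation of ribosomal RNA and H/ACA box snoRNAs guide its pseudouridylation, each by pairing with the target inside a protein complex built on fibrillarin or dyskerin. scaRNAs carry the same boxes, reside in Cajal bodies and guide the same changes on spliceosomal snRNAs. A few members process the ribosomal precursor instead, among them U3 (SNORD3), U8 (SNORD118) and U17 (SNORA73). Most human snoRNAs are cut out of introns of host genes, and the SNORD116 copies come from the imprinted SNHG14 transcript on chromosome 15.

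The sequences below show the RNAs that the comparisons turn on, read from the GENCODE v44 transcripts on GRCh38, 5′ to 3′ with T for U. Capitals mark the C box (TGATGA) and the last D box (CTGA) after it, or the ACA that ends 3 bases before the 3′ end. First come U3, a precursor processing RNA, as bases 1 to 218 of the 699-base SNORD3A model, SNORD17, the C/D box member counted in most wells, and SCARNA21, which was higher in Jurkat.
SNORD3A: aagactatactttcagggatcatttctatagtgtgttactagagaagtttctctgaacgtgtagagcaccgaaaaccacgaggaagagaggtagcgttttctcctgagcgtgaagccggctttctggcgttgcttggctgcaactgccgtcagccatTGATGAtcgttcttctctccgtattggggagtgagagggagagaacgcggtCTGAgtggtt
SNORD17: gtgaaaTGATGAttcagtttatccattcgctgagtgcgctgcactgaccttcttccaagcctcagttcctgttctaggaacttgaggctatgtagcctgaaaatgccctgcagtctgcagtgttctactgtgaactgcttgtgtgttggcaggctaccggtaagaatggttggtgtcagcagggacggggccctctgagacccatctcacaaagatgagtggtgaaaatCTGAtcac
SCARNA21: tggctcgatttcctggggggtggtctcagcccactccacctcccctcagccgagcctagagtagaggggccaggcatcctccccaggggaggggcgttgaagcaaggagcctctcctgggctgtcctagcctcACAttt

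The SNORD116 copies show how alike the repeats of the cluster are and where the copies counted in 1 line differ.
SNORD116-8: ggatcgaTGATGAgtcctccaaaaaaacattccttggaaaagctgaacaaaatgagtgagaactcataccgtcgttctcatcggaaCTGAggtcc
SNORD116-3: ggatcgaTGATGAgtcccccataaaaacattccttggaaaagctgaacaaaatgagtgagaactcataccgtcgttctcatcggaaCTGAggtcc
SNORD116-18: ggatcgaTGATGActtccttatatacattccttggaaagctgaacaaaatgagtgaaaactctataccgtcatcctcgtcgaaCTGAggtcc
SNORD116-25: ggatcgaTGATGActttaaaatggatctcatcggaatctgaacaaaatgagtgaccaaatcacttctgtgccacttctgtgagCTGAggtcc

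The U17 copies, SNORA73A and SNORA73B, show a pair of similar RNAs from 1 host whose levels depended on which wells were used. SNORA81 is an H/ACA box member that lies on an exon.
SNORA73A: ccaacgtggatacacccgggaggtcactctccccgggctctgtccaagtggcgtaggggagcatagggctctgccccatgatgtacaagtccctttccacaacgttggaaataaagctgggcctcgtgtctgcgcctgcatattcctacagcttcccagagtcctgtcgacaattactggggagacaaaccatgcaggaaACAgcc
SNORA73B: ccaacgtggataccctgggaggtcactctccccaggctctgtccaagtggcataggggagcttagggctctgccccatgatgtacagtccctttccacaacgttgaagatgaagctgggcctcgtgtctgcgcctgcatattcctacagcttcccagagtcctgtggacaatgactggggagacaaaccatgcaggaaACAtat
SNORA81: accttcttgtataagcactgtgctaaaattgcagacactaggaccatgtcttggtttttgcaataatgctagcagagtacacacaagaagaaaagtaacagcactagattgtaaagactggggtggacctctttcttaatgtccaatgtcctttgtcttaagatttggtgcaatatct

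On the transcript strand, TGATGA with a later CTGA was present in 72 of 99 C/D box members (72.7%) and in 174 of 286 other annotated C/D box genes (60.8%). ACA at the 3′ position was present in 77 of 101 H/ACA box members (76.2%) and 65 of 112 others (58%). The scaRNA members held both kinds, with the C/D pair in 8 of 20 and the ACA in 12 of 20. SNORA81 is printed without capitals because no ACA was found at that position of its model.

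Wells differed in RNA quality before any comparison of members. Total estimated counts ranged from 909 to 2567265 per well, and 12 A375 wells had under 60% of their counts on protein coding genes. Of these, 6 held only 909 to 2373 counts and 0 to 3 detected members. The other 6, with 80958 to 501269 counts, had 4.84 to 44.4% of counts on protein coding genes, 27.4 to 59.6% on ribosomal RNA and 6.70 to 34.1% on pseudogene copies of mitochondrial genes. Members took 0.644 to 1.31% of the counts in these 6 wells. In the remaining 30 A375 wells, with 62.2 to 77.7% on protein coding genes, members took 0.115 to 0.556%, and in the 36 Jurkat wells, with 67.1 to 76.9%, 0.194 to 0.403%. The main line differences are therefore given over all wells and over the 66 wells with at least 60% on protein coding genes, a limit chosen after the data were seen. The lines carried their labelled markers: CD3D, CD3E and CD2 had counts in 0 A375 wells and in 15 to 18 of 18 Jurkat wells per kit, and SOX10 in 19 and 17 of 21 A375 wells against 0 and 1 Jurkat wells. PMEL, MLANA, TYR and DCT, the pigment genes, had counts in only 1 to 3 A375 wells per kit.

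Members were short, and among members already detected, length and number of wells rose together most clearly in scaRNAs. The median transcript was 90 bases for C/D box members, 134 for H/ACA box members and 141 for scaRNA members. Spearman's rho between length and number of wells was 0.49 over 99 C/D box members, 0.186 over 101 H/ACA box members and 0.718 over 20 scaRNAs, as a description across genes that share libraries and were chosen by detection. C/D box members under 100 bases had a median of 23 wells, those from 100 to under 150 bases 55.5 and those of 200 bases or more 37, so the relation was not steady. All 7 scaRNAs of 200 bases or more were members, with a median of 69 wells, while the 11 members among 15 scaRNAs of at least 100 and under 150 bases had a median of 29 wells. Over all annotated snoRNA and scaRNA genes, the share that passed the limit hardly changed with length. It was 20.9% under 100 bases, 23.9% from 100 to under 150, 22.5% from 150 to under 200 and 22.2% at 200 or more.

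Detection also differed between classes of like length. From 100 to under 150 bases, 89 of 173 annotated H/ACA box genes (51.4%) and 14 of 44 C/D box genes (31.8%) passed the limit of 10 wells. In the same range 22 of 1381 snRNA genes (1.59%), 4 of 715 miscellaneous RNA genes (0.559%) and 2 of 209 miRNA genes (0.957%) did. Under 100 bases, 79 of 277 C/D box genes (28.5%) passed, against 11 of 1658 miRNA genes (0.663%). Of the C/D box genes of 200 bases or more, 5 of 60 passed (8.33%). Of the H/ACA box genes, 6 of 19 from 150 to under 200 bases (31.6%) and 6 of 9 of 200 bases or more (66.7%) passed. The median effective length that the quantification used was 25.8 bases for C/D box members under 100 bases, 30.1 for H/ACA box members of at least 100 and under 150 bases and 95.2 for scaRNAs of 200 bases or more.

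**Figure D1:**
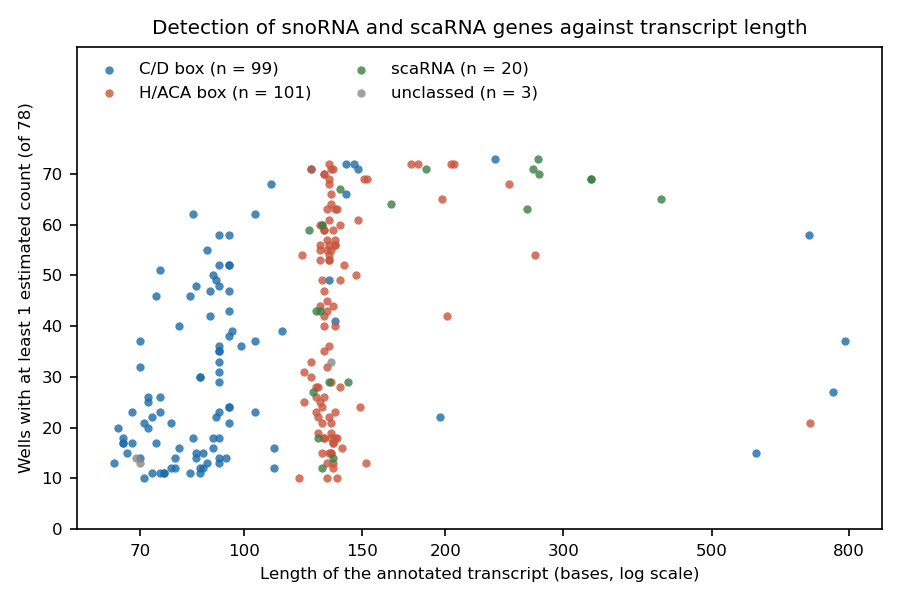
Transcript length in bases (log scale) against the number of the 78 wells with at least 1 estimated count, 1 point per member, coloured by class. C/D box members spread from 64 to 791 bases, H/ACA box members gather near 134 bases, and the scaRNAs of 200 bases or more sit at 63 wells or above.

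Per length, SNORA73B and SNORD10 had the highest levels. Mean CPM per kilobase of transcript, over all 78 wells with both lines and the low protein coding wells together, was 2059 for SNORA73B, 1823 for SNORD10, 1075 for SNORD15B, 852 for SCARNA21 and 765 for SNORD17. The class medians were 17.2 CPM per kilobase for C/D box members, 32.8 for H/ACA box members and 75.0 for scaRNAs. Levels therefore spanned from 2.22 CPM per kilobase in the lowest scaRNA to 2059 in the highest H/ACA box member.

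Reads of a member often could not be told from those of another gene. Of the 223 members, 216 (96.9%) lay inside a host gene on the same strand and 97 (43.5%) on an exon of another gene, against 51.5% and 13.8% of the other annotated genes. No 31-base word of their own was left to 91 members (40.8%), SNORD10 (in an EIF4A1 exon), SNORA73A (in SNHG3) and SNORA64 (in RPS2) among them, and 77 (34.5%) had only words of their own, as SNORD17, SNORD15B, SNORA23 and SCARNA21 did. The counts do not separate a mature snoRNA from a piece of unspliced or retained host transcript.

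The scaRNA share of the counts had a higher mean in Jurkat, and the other classes differed between lines by kit and by the wells used. C/D box members took 0.103% ± 0.0659 (mean ± SD, n = 21) of A375 and 0.102% ± 0.0268 (n = 18) of Jurkat counts with #634413, and 0.0964% ± 0.0763 and 0.135% ± 0.0167 with #634444. The A375 values over the 66 wells were 0.0909% ± 0.0296 and 0.0941% ± 0.0290, and as shares of TPM over all wells with #634413 the lines stood at 1.95% and 1.18%. scaRNA members took 0.0438% ± 0.026 and 0.0748% ± 0.0243 with #634413, and 0.0512% ± 0.0284 and 0.0828% ± 0.0145 with #634444. The A375 values over the 66 wells were 0.0423% ± 0.0167 and 0.0553% ± 0.0134, and the lines overlapped in both kits. SCARNA21 alone had means of 31.1 and 39.3 CPM in A375 and 234 and 196 CPM in Jurkat. With ribosomal RNA and mitochondrial copies left out of the totals, the order of the scaRNA means turned with #634413. They were 0.100% ± 0.125 in A375 and 0.0903% ± 0.0303 in Jurkat. The medians kept the order, at 0.0464% and 0.0905%.

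The H/ACA box share was the one that moved most with the wells used. It was 0.170% ± 0.189 in A375 and 0.0927% ± 0.0199 in Jurkat with #634413, and 0.170% ± 0.190 and 0.122% ± 0.0247 with #634444. Over the wells with at least 60% on protein coding genes, A375 had 0.0974% ± 0.0347 (n = 15) with #634413 and 0.154% ± 0.0792 (n = 15) with #634444. In the 6 wells of low protein coding share and at least 80958 counts, H/ACA box members took 0.339 to 0.878%. The part of RNA quality in these shares was not tested.

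The C/D box share depended on U3. Without the SNORD3 genes, C/D box members took 0.0893% ± 0.0294 and 0.0894% ± 0.0295 of counts in A375 (66 wells, #634413 and #634444) and 0.0677% ± 0.0167 and 0.0791% ± 0.0162 in Jurkat. The lines overlapped in both kits, and no test was made of sums over chosen members.

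**Figure D2:**
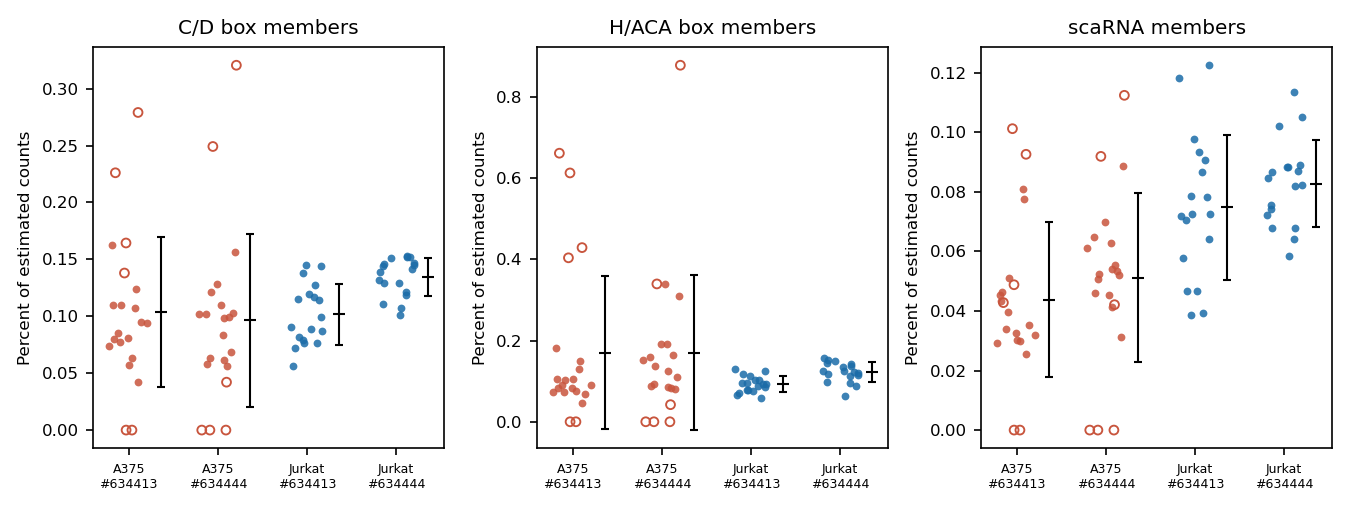
Percent of a well's estimated counts on C/D box, H/ACA box and scaRNA members by line and kit. Filled points are wells with at least 60% of counts on protein coding genes, open circles the other A375 wells, and black bars mean ± SD over all wells of a group. The highest H/ACA box values, up to 0.878%, are open circles, and the scaRNA means of Jurkat, 0.0748% and 0.0828%, lie above those of A375. With #634413 the order of these means, but not of the medians, turns without ribosomal RNA and mitochondrial copies.

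The number of members detected per well is a description, since detection in 10 of the 78 wells, 42 of them A375, chose the members and a gene could enter through 1 line. Over the 66 wells, 133 ± 20.3 and 140 ± 35.5 members were detected per A375 well (n = 15 each) and 96.6 ± 9.31 and 106 ± 16.2 per Jurkat well (n = 18 each), #634413 first. With every well thinned to 155756 counts, the same wells gave 76.8 ± 15.5 and 89.0 ± 19.5 against 56.9 ± 4.85 and 66.2 ± 7.49. C/D box members numbered 27.3 ± 6.62 and 30.2 ± 9.10 in thinned A375 wells against 17.2 ± 2.32 and 19.3 ± 3.66 in Jurkat. H/ACA box members numbered 38.5 ± 8.41 and 46 ± 11.1 against 28.8 ± 4.23 and 34.7 ± 4.54, and scaRNAs stood at 10.7 ± 2.09 and 12.1 ± 1.46 against 10.6 ± 1.5 and 11.6 ± 1.09. Without thinning or leaving out wells, A375 wells held 117 ± 43.4 and 112 ± 63.5 members.

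U3, which pairs with the ribosomal precursor at the first steps of its cleavage, was much lower in A375 than in Jurkat. SNORD3A (chr17:19188016-19188714, plus strand) was named beforehand for this difference, so its values are a description without a test. With #634413 it lay at 0, 0 and 44.5 CPM (lowest, median, highest) in A375, counted in 7 of 21 wells, and at 120, 263 and 547 CPM in Jurkat, counted in 18 of 18. With #634444 it lay at 0, 11 and 82.9 CPM in A375 (15 of 21 wells) and 333, 484 and 649 CPM in Jurkat (18 of 18). No A375 well reached the lowest Jurkat well in either kit. The log2 fold change of A375 over Jurkat was -5.56 ± 0.64 (SE) and -4.35 ± 0.48, and -5.40 ± 0.67 and -4.10 ± 0.34 over the 66 wells.

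The gene-level value of SNORD3A cannot be separated from its copies, since only 0.4% of its 31-base words were its own. Over bases 1 to 218, SNORD3B-1, SNORD3B-2 and SNORD3C each matched SNORD3A at 217 positions, and 1 of the genes named SNORD3D at 215. The gene named U3 (ENSG00000212195) was less alike, at 126 of 196 positions, and all its 31-base words were its own. The counts were therefore also summed over 7 genes, SNORD3A, SNORD3B-1, SNORD3B-2, SNORD3C, 2 genes named SNORD3D and the gene named U3, with the lncRNA (ENSG00000262202) that runs over the SNORD3D copies as the 8th. The sum was 0, 16.3 and 98.2 CPM in A375 against 130, 308 and 706 CPM in Jurkat with #634413, and 0, 40.2 and 144 CPM against 371, 544 and 801 CPM with #634444. Within each kit the lines did not overlap, and mean levels in Jurkat were 16 and 14.8 times those in A375 (15.7 and 11.5 times over the 66 wells).

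The copies did not all move together. SNORD3B-2 was lower in A375, at -3.24 ± 1.05 and -2.04 ± 0.77 on the log2 scale. SNORD3B-1, tested with #634444 only, was at -2.70 ± 0.83. Reads of these copies can hardly be told from those of SNORD3A, which was named for this difference. Their values are therefore a description and no separate support for it. Over the 66 wells neither passed an adjusted p of 0.05, from edgeR's quasi-likelihood test with Benjamini-Hochberg adjustment over all genes tested, here and below. SNORD3C was counted in 7 of 21 A375 and 0 of 18 Jurkat wells with #634413, the opposite direction, and in 3 of 21 and 5 of 18 with #634444, and was too sparse to test. The split of reads among these near-identical copies is uncertain.

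SNORD118 (U8) gave no call, and SNORD13 (U13) was not tested. U8, SNORD118, needed for the large subunit rRNAs, was at 0, 2.43 and 8.69 CPM in A375 and 0, 5.11 and 23.8 CPM in Jurkat with #634413, with log2 fold changes of -0.64 ± 0.79 (adjusted p = 0.639) and -0.35 ± 0.71 (adjusted p = 0.757), and with #634413 over the 66 wells of -1.15 ± 0.73 (adjusted p = 0.3). These values have the sign of U3 and miss the threshold. It lies on a TMEM107 exon and has no 31-base word of its own. SNORD13 (U13) was counted in 5 and 8 of 21 A375 wells and in 10 and 14 of 18 Jurkat wells, more often in Jurkat, and had too few counts for a test.

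**Figure D3:**
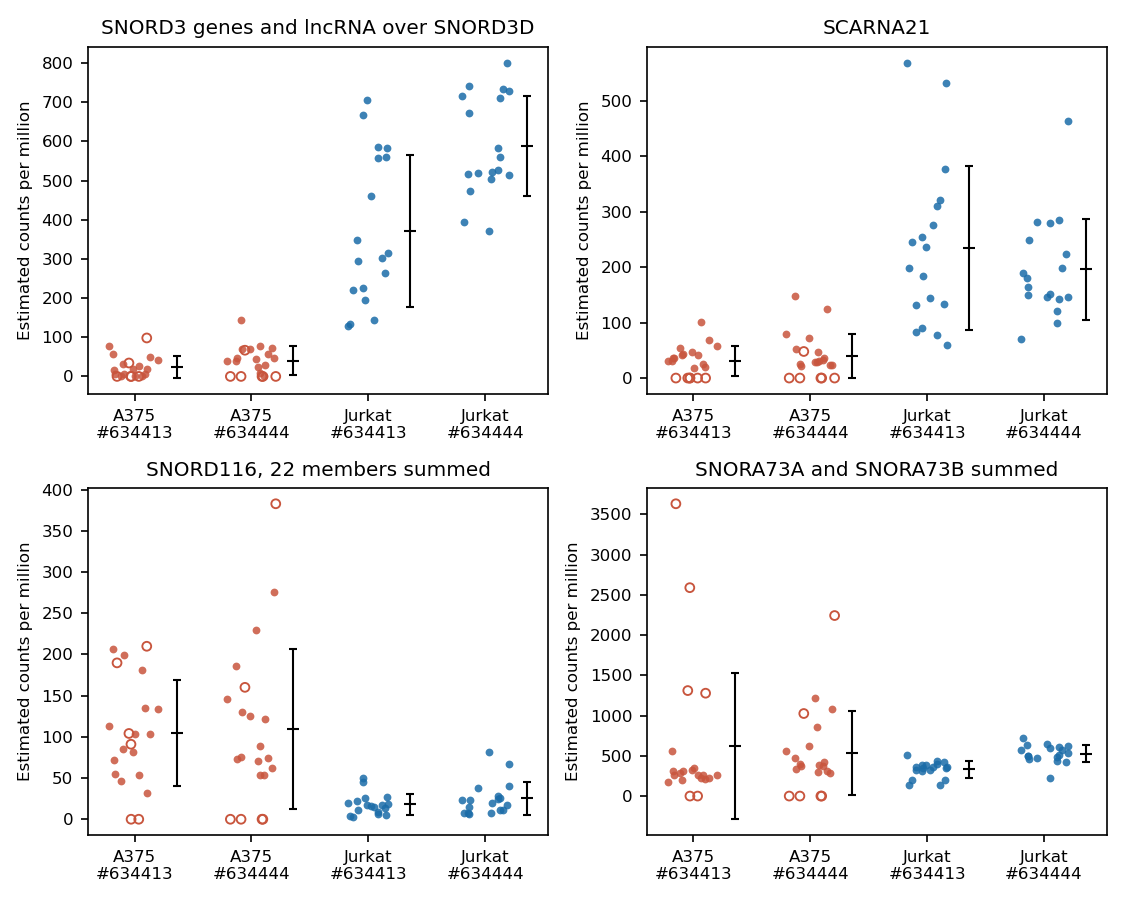
CPM in each well by line and kit, for the SNORD3 genes with the lncRNA over SNORD3D (8 genes summed), SCARNA21, the 22 SNORD116 members summed, and SNORA73A with SNORA73B. Filled points are wells with at least 60% of counts on protein coding genes, open circles the other A375 wells, and bars mean ± SD over all wells. SNORD3 separates the lines, SNORD116 is higher in A375, and the highest SNORA73 wells, up to 3633 CPM, are open circles.

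U17 (SNORA73A and SNORA73B, from the RCC1 and SNHG3 locus on chromosome 1), which is needed for the small subunit rRNA, reached the highest member levels, and its line difference depended on the wells. Laid side by side without gaps, the copies of 206 and 204 bases matched at 136 positions. That count misses like stretches shifted by an inserted or missing base, so it understates how alike the copies are. SNORA73B was at 0, 232 and 3308 CPM in A375 and 87.4, 272 and 420 CPM in Jurkat with #634413, with a log2 fold change of 2.30 ± 0.57 (adjusted p = 0.00113). Its A375 values over the 66 wells ran from 140 to 448 CPM with a median of 225, and the fold change was -0.18 ± 0.24 (adjusted p = 0.667). With #634444 it was 0.44 ± 0.50 (adjusted p = 0.552) and 0.27 ± 0.21 (adjusted p = 0.337).

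The line differences over all members are read against the calls over all genes. With #634413, 84 members passed the filter of at least 5 counts in 25% of the wells. Of these, 34 were called higher in A375, where 12.4% of all 11171 genes tested were, and 3 higher in Jurkat, where 10.7% were. With #634444, 88 were tested, 24 were higher in A375 (14.1% of 12258 genes) and 6 in Jurkat (16.2%). SNORD3A and its copy SNORD3B-2 are among both the 3 and the 6 higher in Jurkat, and SNORD3B-1 is among the 6. By class, 13 of 24 C/D box, 18 of 46 H/ACA box and 3 of 14 scaRNA members were higher in A375 with #634413, and 9 of 25, 13 of 49 and 2 of 13 with #634444. The median log2 fold change of members tested was 1.63 and 0.77, beside -0.13 and -0.22 over all genes. A member can pass the filter through the line where it is high, so these counts are no support for a direction.

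Fewer members were called with #634413 once the A375 wells of low protein coding share were left out. Over the wells with at least 60% on protein coding genes, 78 members were tested with #634413, and 11 were higher in A375 (14.4% of all genes) and 2 in Jurkat (8.76%). With #634444, 90 were tested, and 25 were higher in A375 (20.9%) and 7 in Jurkat (12.8%). The class that lost most was H/ACA box, from 18 to 1 of 44 with #634413, while 10 of 22 C/D box members were called, 9 of them also called over all wells and SNORD45A (adjusted p = 0.159 over all wells and 0.0376 over the 66 wells) only here. The medians of members tested were 0.30 and 0.74, beside 0.11 and 0.18 over all genes. The study pooled 8 libraries at a time, and the pools are not named. Counts were also summed over blocks of 8 consecutive index numbers in place of wells. Then 0 of 174 members tested were called higher in A375 with #634413 and 5 of 179 with #634444. The share of all genes called in those fits is not given.

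**Figure D4:**
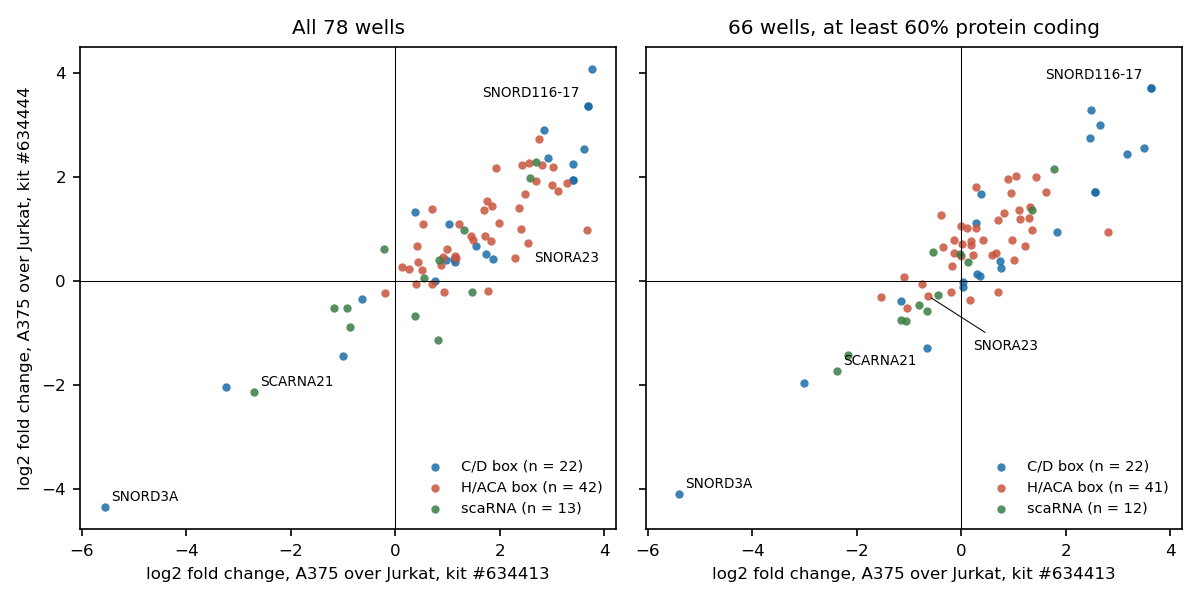
log2 fold change of A375 over Jurkat with kit #634413 (x axis) and kit #634444 (y axis) for members tested in both, over all 78 wells (left, 77 members) and the 66 wells with at least 60% of counts on protein coding genes (right, 75 members). SNORD3A and SCARNA21 are at the lower left and SNORD116-17 at the upper right in both panels. SNORA23 moves from 2.54 to -0.64 on the x axis.

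In both kits and over both sets of wells, 9 members were called higher in A375, all of them C/D box snoRNAs, and SCARNA21 higher in Jurkat. Members tested in both kits numbered 77 over all wells and 75 over the 66 wells. The share of all genes called in both kits was not computed, so counts of calls in both kits have no background here. The 9 were SNORD116-3, SNORD116-8, SNORD116-9, SNORD116-15, SNORD116-16, SNORD116-17, SNORD116-19, SNORD116-24 and SNORD87. SNORD3A, lower in A375 in each of these fits, was named by the rule for that difference and is no support for a direction. The counts of members higher in Jurkat above include it, and those over all wells include its copies too. With index blocks in place of wells, none of the 9 was called with #634413. Over all wells 19 members were called higher in A375 in both kits, 8 of them H/ACA box and 2 scaRNA, and the 10 beyond the 9 above were not called in both kits over the 66 wells. No member was called in opposite directions by the 2 kits.

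SNORD116 is a cluster of repeated C/D box RNAs with no known rRNA target, made from the introns of SNHG14 and lost in Prader-Willi syndrome. It was higher in A375. The 22 members of the cluster together were at 0, 104 and 210 CPM in A375 and 2.28, 16.6 and 50.5 CPM in Jurkat with #634413, and at 0, 75.8 and 383 CPM against 6.15, 21.5 and 81.3 CPM with #634444. A375 wells lay mostly above Jurkat wells, with overlap, and mean levels in A375 were 5.82 and 4.35 times those in Jurkat (5.94 and 4.66 times over the 66 wells).

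Single copies showed the same direction. SNORD116-8 was at 0, 14.6 and 52 CPM in A375 and 0, 1.30 and 9.16 CPM in Jurkat with #634413, with log2 fold changes of 3.76 ± 0.94 (adjusted p = 0.00111) and 4.07 ± 0.87 (adjusted p = 0.0001). These were, over the 66 wells, 2.48 ± 0.72 (adjusted p = 0.00822) and 3.29 ± 0.72 (adjusted p = 0.000274). SNORD116-17, whose sequence SNORD116-19 repeats, was at 3.69 ± 0.87 (adjusted p = 0.000513) and 3.36 ± 0.76 (adjusted p = 0.000218). SNORD116-3 and SNORD116-9 likewise carry the same value in every well, at 3.39 ± 0.90 (adjusted p = 0.00233) and 1.94 ± 0.76 (adjusted p = 0.0419), so the 8 called copies are fewer than 8 independent measurements.

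The host moved in the same direction by less. SNHG14 had a mean of 224 and 236 CPM in A375 and 81.8 and 100.2 CPM in Jurkat, and its log2 fold changes were 1.76 ± 0.55 (adjusted p = 0.0112) and 1.38 ± 0.49 (adjusted p = 0.0232). The 17 SNORD116 members that lie on no SNHG14 exon had means in A375 of 5.74 and 3.82 times those in Jurkat (6.15 and 4.36 times over the 66 wells). Whether the copies changed more than their host was not tested.

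A pair of copies was counted in 1 line only. SNORD116-18 was listed at 0 in all 42 A375 wells and counted in 5 and 8 of 18 Jurkat wells, at up to 26.4 and 20.1 CPM. SNORD116-25 was counted in 8 and 6 of 21 A375 wells, at up to 8.14 and 3.91 CPM, and in 0 Jurkat wells. SNORD116-18 differs from SNORD116-17 and SNORD116-19, which were higher in A375, by 1 base, A19T (the base of those copies, its position from the 5′ end, and the base of SNORD116-18). SNORD116-14, SNORD116-15, SNORD116-20, SNORD116-21 and SNORD116-22 differ from it by 2 bases each, A19T included, and SNORD116-25 by 46 of 92. Counts assigned to SNORD116-18 rest on reads that cover that position, and both copies were too sparse for a test.

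SNORD87, a C/D box RNA in an exon of SNHG6, was the other C/D box member past the threshold in both kits and both sets of wells. It was at 0, 5.90 and 17.1 CPM in A375 and 0, 0 and 7.25 CPM in Jurkat with #634413, with log2 fold changes of 3.62 ± 0.89 (adjusted p = 0.000927) and 2.52 ± 0.76 (adjusted p = 0.00667). They were, over the 66 wells, 3.17 ± 0.81 (adjusted p = 0.00236) and 2.44 ± 0.68 (adjusted p = 0.00382). It has no 31-base word of its own, and SNHG6 was at 1.12 ± 0.60 (adjusted p = 0.187) and 1.75 ± 0.49 (adjusted p = 0.00369).

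The C/D box members counted in most wells differed less between lines. SNORD17 (chr20:17962710-17962946, minus strand, inside SNX5 and OVOL2 and on no exon) was at 0, 159 and 834 CPM in A375 and 1.81, 122 and 295 CPM in Jurkat with #634413, and its log2 fold change went from 1.88 ± 0.55 (adjusted p = 0.00646) to 0.31 ± 0.41 (adjusted p = 0.666) over the 66 wells. SNORD15B, inside RPS3 and on no exon, went from 1.74 ± 0.48 (adjusted p = 0.00376) to 0.74 ± 0.30 (adjusted p = 0.0654). With #634444 neither passed the threshold in either set of wells. SNORD10, SNORD15A, SNORD22 and SNORD8 passed it in neither kit, with 1.15 for SNORD22 as the highest log2 fold change over all wells.

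SNORD97, on an EIF4G2 exon, was lower in A375 with #634444. It was at 0, 12.5 and 39.9 CPM in A375 and 14.2, 39.5 and 78.5 CPM in Jurkat, a log2 fold change of -1.45 ± 0.52 (adjusted p = 0.0258) and -1.28 ± 0.40 (adjusted p = 0.0099) over the 66 wells. With #634413 it was at -1.0 ± 0.72 (adjusted p = 0.358). EIF4G2 itself was at -1.42 ± 0.45 (adjusted p = 0.01) with #634444.

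H/ACA box members called in both kits over all wells missed the threshold with #634413 over the 66 wells. SNORA81 (chr3:186786675-186786852, on an exon of EIF4A2) was at 0, 51.3 and 573 CPM in A375 and 4.96, 30.8 and 56.2 CPM in Jurkat with #634413, a log2 fold change of 3.03 ± 0.60 (adjusted p = 3.02e-05) that became 0.70 ± 0.47 (adjusted p = 0.329). With #634444 it was 2.19 ± 0.56 (adjusted p = 0.00131) and 1.16 ± 0.32 (adjusted p = 0.00384). EIF4A2 was not called in either kit over all wells, at -0.94 ± 0.42 (adjusted p = 0.0994) and -0.72 ± 0.44 (adjusted p = 0.225).

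SNORA6 and SNORA62, on exons of the ribosomal protein gene RPSA, showed the same pattern. SNORA6 was at 0, 18.5 and 161 CPM in A375 and 0, 3.92 and 23.6 CPM in Jurkat with #634444, with a log2 fold change of 2.27 ± 0.68 (adjusted p = 0.00611) and 2.02 ± 0.60 (adjusted p = 0.0064) over the 66 wells. With #634413 it went from 2.56 ± 0.74 (adjusted p = 0.00589) to 1.06 ± 0.65 (adjusted p = 0.282). SNORA62 was at 1.92 ± 0.65 (adjusted p = 0.0169) with #634444 and RPSA at -0.62 ± 0.50 (adjusted p = 0.374).

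SNORA23, a pseudouridine guide from an IPO7 intron with only 31-base words of its own, gave the widest change with the wells used among the members counted in most wells. It was at 0, 34.3 and 729 CPM in A375 and 13.6, 54.3 and 145 CPM in Jurkat with #634413. Its log2 fold change was 2.54 ± 0.62 (adjusted p = 0.000943) over all wells and -0.64 ± 0.44 (adjusted p = 0.351) over the 66 wells, where A375 lay at 17.2, 33.8 and 74.8 CPM. IPO7 was higher in A375 over the 66 wells, at 1.28 ± 0.28 (adjusted p = 0.000372), and the member's value was of the opposite sign. SNORA64 and SNORA49 passed the threshold in neither kit.

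Among scaRNAs, SCARNA21 (chr17:7906122-7906260, in an intron of CHD3) was higher in Jurkat in both kits and both sets of wells. It was at 0, 31.1 and 101 CPM in A375 and 59.2, 217 and 568 CPM in Jurkat with #634413, and at 0, 29.2 and 148.8 CPM against 69.9, 172 and 463 CPM with #634444. The lines overlapped in both kits, and the A375 median lay below the lowest Jurkat well in each. The log2 fold changes were -2.71 ± 0.49 (adjusted p = 3.67e-06) and -2.13 ± 0.44 (adjusted p = 5.6e-05), and over the 66 wells -2.38 ± 0.34 (adjusted p = 3.44e-07) and -1.74 ± 0.30 (adjusted p = 6.74e-06). All its 31-base words were its own. CHD3, a chromatin remodeller, was lower in A375 by similar amounts, at -2.36 ± 0.43 (adjusted p = 5.85e-06) and -1.71 ± 0.45 (adjusted p = 0.00156).

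The long scaRNAs counted in most wells passed in neither kit over all wells. With #634444 over the 66 wells, 13 scaRNA members were tested, and 3 were higher in A375 (20.9% of all genes) and 4 lower (12.8%). With #634413 over these wells 12 were tested, and 0 were higher (14.4%) and 1 lower (8.76%). Over the 66 wells with #634444, SCARNA13, in a SNHG10 intron, was at -0.77 ± 0.25 (adjusted p = 0.0148) and SCARNA10 (U85, which carries both box types) at -0.57 ± 0.21 (adjusted p = 0.0323), both lower in A375. SCARNA7 was higher in A375, at 17.4, 52.8 and 120 CPM against 3.86, 21.1 and 65.7 CPM and a log2 fold change of 1.36 ± 0.36 (adjusted p = 0.00244). SCARNA22, from NSD2, was at -1.42 ± 0.55 (adjusted p = 0.042). SCARNA12, SCARNA16 and SCARNA5 passed the threshold in neither kit or set of wells.

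Differences of members and their hosts were set side by side over the 66 wells. Across 74 pairs of member and host (54 hosts) Spearman's rho was 0.554 with #634413, and across 83 pairs (60 hosts) 0.605 with #634444, as a description, since pairs share hosts, libraries and, on exons, reads. For members on no exon of another gene it was 0.656 over 38 pairs and 0.747 over 42, and for members on an exon 0.385 over 36 and 0.403 over 41. Of the members called higher in A375, 9 of 11 with #634413 and 14 of 25 with #634444 had a host that was also called higher over the 66 wells, and 10 of 34 and 9 of 24 over all wells. Among all genes tested, 14.4% and 20.9% were called higher in A375 over the 66 wells, and 12.4% and 14.1% over all wells. The 14 were 10 of 13 members on no exon and 4 of 12 on an exon. Of the 9 with #634413 over the 66 wells, 8 were SNORD116 copies that share the host SNHG14. With #634444, most of the 10 members on no exon were likewise SNORD116 copies called in both kits. They share that host too, so the 10 do not stand for as many hosts. The contrast between members on no exon and on an exon therefore draws largely on SNHG14.

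**Figure D5:**
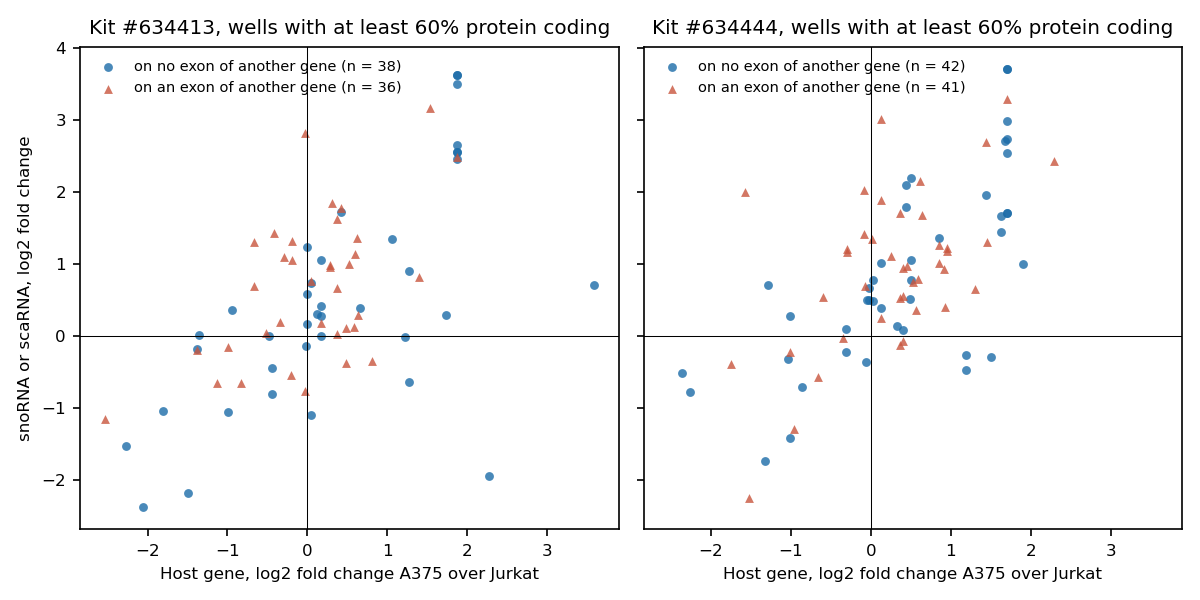
log2 fold change of A375 over Jurkat of the host gene (x axis) and of the member (y axis), wells with at least 60% of counts on protein coding genes, #634413 left and #634444 right. Circles are members on no exon of another gene and triangles members on an exon. The circles in the upper right of both panels at a host value of 1.88 and 1.70 are SNORD116 copies of SNHG14.

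Genes for proteins that build and process these particles were also tested. Of 36 genes listed, 35 were tested, and 1 was higher and 2 lower in A375 with #634413, 0 higher and 4 lower with #634444. Over all genes tested 12.4% were higher and 10.7% lower with #634413, and 14.1% and 16.2% with #634444, so the list did not exceed the background. SHQ1, the chaperone that hands dyskerin to new H/ACA particles, was the 1 gene lower in both kits, at -1.82 ± 0.62 (adjusted p = 0.0216) and -2.37 ± 0.46 (adjusted p = 1.55e-05), and over the 66 wells at -1.61 ± 0.61 (adjusted p = 0.0499) and -1.96 ± 0.36 (adjusted p = 2.39e-05). ZNHIT3, a C/D box assembly factor, was at -2.44 ± 0.91 (adjusted p = 0.0404) with #634413, and ZNHIT6, another, at -1.86 ± 0.53 (adjusted p = 0.00383) with #634444. NOP56, a core protein of C/D box particles, and RUVBL2, an assembly ATPase, were at -1.14 ± 0.45 (adjusted p = 0.0467) and -1.09 ± 0.43 (adjusted p = 0.0434) with #634444.

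Neither fibrillarin nor dyskerin passed the threshold. FBL was at -0.66 ± 0.52 (adjusted p = 0.406) and -0.97 ± 0.46 (adjusted p = 0.104), and DKC1 at -0.05 ± 0.49 (adjusted p = 0.963) and -0.51 ± 0.45 (adjusted p = 0.423). The U3 proteins RRP9, MPHOSPH10, IMP3 and IMP4 passed in neither kit, with RRP9 at 0.11 ± 0.91 (adjusted p = 0.958) and 0.12 ± 0.75 (adjusted p = 0.927). Over the 66 wells, 2 of 35 listed genes tested were higher and 1 lower with #634413, and 3 of 36 higher and 4 lower with #634444. Among all genes tested 14.4% were higher and 8.76% lower with #634413, and 20.9% and 12.8% with #634444. The list did not exceed the background here either. DIS3, the exosome nuclease, was higher in A375 in both, at 1.51 ± 0.44 (adjusted p = 0.00866) and 1.40 ± 0.35 (adjusted p = 0.00121), and so was SMN1, whose reads cannot be told from those of SMN2.

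Between the kits no member was called within a line. In A375, 0 of 95 members tested passed (0.0744% of all genes did), with 11 at an unadjusted p under 0.05 and 0 by DESeq2. In Jurkat, 0 of 64 passed (0.0376% of all genes), with 6 at an unadjusted p under 0.05 and 1 by DESeq2. SNORD3A was at 0.81 ± 0.20 (adjusted p = 0.212) for #634444 over #634413 in Jurkat. The test of whether the line difference itself differed between kits called 0 of 86 members (1.53% of all genes), with 4 at an unadjusted p under 0.05 and 0 by DESeq2. For SNORD3A that difference was 1.26 ± 0.65 (adjusted p = 0.791), and for SNORD17 -1.30 ± 0.69 (adjusted p = 0.829).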

How the data were processed

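Per the labels and the methods, the authors trimmed read 2 of each pair with cutadapt, assessed quality on STAR (2.5.3) alignments, and quantified Ensembl transcripts plus spike sequences by kallisto (0.43.1) with strand. For each well the authors deposited estimated counts per transcript and TPM, with length and effective length. Here estimated counts were summed per gene, spike sequences left out, and rounded to whole numbers for tests. CPM is estimated counts scaled to 1000000 per well. Biotypes, coordinates, hosts and sequences are from GENCODE v44 (GRCh38).

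Each line difference was fitted per kit, and each kit difference per line, with edgeR (4.0.16, TMM, quasi-likelihood) over genes that reached 5 counts in 25% of wells or more, with p-values adjusted by Benjamini-Hochberg at 0.05. DESeq2 (1.42.0, poscounts) was an alternative, and the code was tested on simulated data. Members, gene lists and tests were chosen with earlier results of these data known. Genes named are SNORD3A, the 6 members per class counted in most wells, up to 6 per direction past the threshold in both line comparisons, up to 3 per direction in a kit comparison or the interaction, 3 on each side of the limit of 10 wells, the SNORD3 and SNORA73 copies and the snoRNP factors past it in both kits. The other members and factors named, and the SNORD116 copies, were chosen after their values were seen. TPM was used for class shares in 1 alternative. Totals were 327162 to 2567265 counts in the 66 wells. Errors are SDs over wells or standard errors from the fit.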

Additional observations from a re-analysis of the deposited data

How the results depend on the processing

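All alternatives that keep only the wells with at least 60% of counts on protein coding genes were chosen after seeing the data. The share of all genes called is given above for the main fits and the edgeR line differences over the 66 wells only. Counts of members called in the other settings below therefore have no background beside them. With #634413, the number of members higher in A375 was 34, and it was 69 with a filter of 1 count in 3 wells, 21 with library size alone, 14 with transcripts tested in place of genes and 0 with index blocks. Over the 66 wells it was 11, 12 with DESeq2, 11 with library size alone and 0 with index blocks. The number higher in Jurkat, 3, was 7 with the lower filter and 7 with DESeq2 over the 66 wells. With #634444, the 24 members higher in A375 were 46 with the lower filter, 10 with transcripts, 5 with index blocks and 4 with index blocks over the 66 wells, and the 6 higher in Jurkat were 13 with the lower filter and 3 with transcripts. The lower filter tested 221 and 223 members, and index blocks leave few units per group. The kit difference called 5 members in A375 and 3 in Jurkat with the lower filter, 1 in each with DESeq2 over the 66 wells and 1 in Jurkat with DESeq2 over all wells, and the interaction 7 with the lower filter. With #634413, leaving ribosomal RNA and mitochondrial copies out of the totals moved the difference in mean class share, A375 minus Jurkat, to 0.160 percentage points for C/D box, 0.568 for H/ACA box and 0.00985 for scaRNA members. The A375 medians lay below those of Jurkat in each class. They were 0.110%, 0.107% and 0.0464% in A375, against 0.115%, 0.112% and 0.0905% in Jurkat. A limit of 5 counts left 111 members, and 59.4 detected per A375 well with #634413, 48.7 per Jurkat well with #634413 and 50.2 with #634444. Thinning left 56.9 and 66.2 per Jurkat well. In the #634413 line difference over the 66 wells, alone, with library size, with DESeq2 and with index blocks, the log2 fold change turned to -0.18, -0.23, -0.43 and -0.24 for SNORA73B, -0.19, -0.24, -0.44 and -0.27 for SNORA73A, and -0.64, -0.70, -0.89 and -0.67 for SNORA23. With DESeq2 it was -1.02 for SNORA64 and -1.30 for SCARNA13. The causes were not tested. Wells of under 5000 counts could show at most a few members, so a member at 0 there was not detectable at that depth. No paired analysis was possible because the labels give the wells no shared replicate numbers.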
